A study of Drosophila melanogaster with 8 samples.

Results

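The 7 genes described here, Atf3, Gadd45, scaf, Pvf1, Cad96Ca, cher and Zasp52, are stress and wound targets that lie downstream of the Jun N-terminal kinase (JNK) in Drosophila melanogaster. They were taken by symbol from the 18354 gene rows of the deposited table, all 7 had a row, and all 7 passed the filter on low values, a mean of at least 10 normalized counts. RNA was measured by sequencing in whole wing imaginal discs, the larval epithelia that form the adult wing and thorax, with 150 discs in a library. Libraries labelled ecd-RNAi (4) came from larvae with nub-Gal4, UAS-mRFP and UAS-ecd-RNAi, and control libraries (4) from larvae with nub-Gal4 and UAS-mRFP alone. In all of them nub-Gal4 drove a red fluorescent protein, larvae were raised at 25 °C and discs were taken 7 days after egg laying, in the last larval stage. The driver is active in the wing pouch and part of the hinge, so cells outside its domain were measured too.

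JNK is a stress kinase at the end of a kinase cascade that the tumour necrosis factor homologue Eiger and tissue damage switch on. It phosphorylates the AP-1 transcription factor, and AP-1 target genes drive wound closure, tissue repair or cell death in the disc. The genes covered here stand for several of these branches: a transcription factor (Atf3), an intracellular stress sensor (Gadd45), secreted proteins (scaf and Pvf1), a receptor tyrosine kinase (Cad96Ca, also named stitcher) and proteins that build and anchor actin (cher and Zasp52).

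The table covers 9380 gene rows above the filter. The deposited values summed to between 27403922 and 32623572 normalized counts in libraries labelled ecd-RNAi and to between 35110994 and 37879705 in control libraries, which the spacing of low values puts at roughly 31052127 to 37606423 and 29567153 to 36687365 reads. Ribosomal RNA made up 26.6% to 35.2% of the signal in libraries labelled ecd-RNAi and 48.9% to 52.9% in control libraries. The targeted gene, ecd, averaged 1348 ± 114 normalized counts in libraries labelled ecd-RNAi and 1028 ± 25.9 in control libraries (SD, n = 4 each). It was higher and not lower, which goes against the label. Reads from the hairpin of the UAS-ecd-RNAi transgene and reads from the gene itself cannot be told apart in this row, so it does not measure the knockdown, and every direction below rests on the labels as given. The driver gene nub averaged 10576 ± 284 normalized counts in libraries labelled ecd-RNAi and 11475 ± 518 in control libraries. The 6 defining disc markers nub, vg, sd, ap, wg and dpp had group means between 1756 and 12259. Of the 19 genes of wing disc identity 2 rose and 16 fell, with a median log2 fold change of -0.38. The higher call of dpp was near the threshold and was kept in 9 of 19 alternatives. It was lost without replicate 1, 2 or 3 labelled ecd-RNAi or control replicate 1 or 4. Recentring on the median or rescaling to the same total without rRNA also removed it.

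Of the 7 genes, 6 passed the test in the higher direction, 0 in the lower direction, and Pvf1 did not pass. That count has to be read against a large response of the whole transcriptome, because 62.5% of all genes tested were called. Of all genes tested, 30.8% were called higher and 31.7% lower (limma on log2(normalized count + 1), Benjamini-Hochberg adjusted p under 0.05). The counts of every list below have to be read against the same shares. The sizes were unequal. Gadd45 and Atf3 changed most, cher and scaf by about the same lesser amount, and Zasp52 and Cad96Ca by so little that their calls depend on how the libraries are scaled. The median log2 fold change of the 7 genes was 0.63, against 0.00 over all genes tested. The 7 genes were chosen with earlier results of these data known, so this median and the count called are not independent evidence. Because whole discs were measured, more RNA per cell and more cells of a kind cannot be told apart. In 5 of the 7 genes no library of one group overlapped the other, with libraries labelled ecd-RNAi higher, which was so for 28% of all genes tested.

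**Figure D1:**
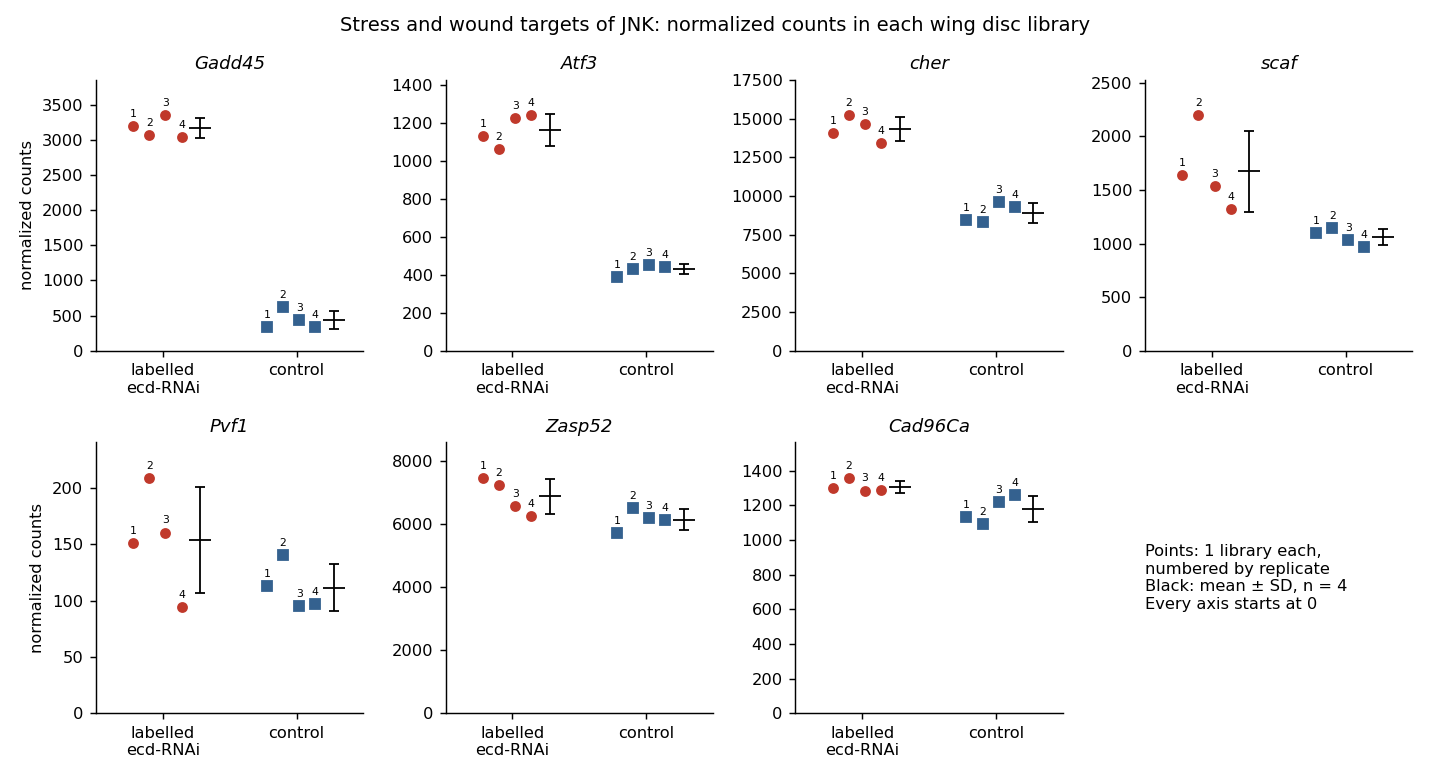
Normalized counts (y axis, each from 0) of the 7 genes in the 4 libraries labelled ecd-RNAi (red circles) and the 4 control libraries (blue squares), numbered by replicate, with the mean and SD in black. Gadd45 and Atf3 stand far apart between the groups, whereas in Pvf1 and Zasp52 libraries of both groups overlap.

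Atf3 (FBgn0028550, chromosome X, 1242740 to 1275284, minus strand, BDGP6) encodes a basic leucine zipper (bZIP) factor of the ATF/CREB family, a class of proteins that bind DNA in pairs. It had 1132, 1061, 1224 and 1242 normalized counts in replicates 1 to 4 labelled ecd-RNAi, against 391, 432, 452 and 442 in control replicates 1 to 4. The groups lay far apart, and within each group the libraries were close together, with a coefficient of variation of 7.24% in libraries labelled ecd-RNAi and 6.28% in control libraries. Atf3 rose 2.71-fold (log2 fold change 1.44, SE 0.07, adjusted p = 5.07e-08).

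Among the bZIP factors that Atf3 belongs with, 10 of 15 tested rose and 2 fell, with a median log2 fold change of 0.39. Jra, the fly Jun and a subunit of AP-1, averaged 1133 ± 15 normalized counts in libraries labelled ecd-RNAi and 718 ± 35.0 in control libraries (log2 fold change 0.66, adjusted p = 6.31e-07). The other AP-1 subunit, kay (Fos), averaged 4831 ± 554 in libraries labelled ecd-RNAi and 3675 ± 295 in control libraries (log2 fold change 0.39, adjusted p = 0.00235). The largest changes in the group were those of slbo, a low C/EBP factor (62.6 ± 8.30 in libraries labelled ecd-RNAi and 7.34 ± 4.69 in control libraries), and of Irbp18, a partner of Xrp1 (log2 fold change 2.29). CrebA, a factor of the secretory pathway, fell by 1.57 on the log2 scale, and Xbp1, a factor of the unfolded protein response, fell by 0.27. The log2 fold change of Atf3 was above that of either AP-1 subunit and below those of slbo, Irbp18 and Xrp1 (1.64). These differences were not tested.

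Gadd45 (FBgn0033153, chromosome 2R, 7249161 to 7250655, plus strand) has a single annotated transcript of 1495 bases and no intron. Its mammalian homologues bind and activate a MAP kinase kinase kinase upstream of p38 and JNK. The gene had 3199, 3063, 3351 and 3040 normalized counts in replicates 1 to 4 labelled ecd-RNAi, against 342, 623, 440 and 343 in control replicates 1 to 4. All libraries labelled ecd-RNAi held a narrow range, with a coefficient of variation of 4.54%, while control libraries varied by 30.3% and control replicate 2 was highest. Gadd45 rose 7.24-fold, the largest change of the 7 genes (log2 fold change 2.90, SE 0.16, adjusted p = 2.08e-07), and 8.44-fold when control replicate 2 was left out. It stood at percentile 97.7 of log2 fold changes over all genes tested, and Atf3 at percentile 94.0.

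The kinases that Gadd45 proteins are known to act on in mammals, and the p38 branch below them, moved in both directions. Of 9 genes 2 rose, 2 fell and 5 did not pass, with a median log2 fold change of 0.02. Mekk1, the fly homologue of the mammalian partner of GADD45, averaged 3215 ± 105 normalized counts in libraries labelled ecd-RNAi and 3182 ± 152 in control libraries (log2 fold change 0.02, adjusted p = 0.765). The stress kinase gene p38a rose by 0.55 on the log2 scale, to 308 ± 25.4 against 210 ± 5.67 in control libraries (adjusted p = 9.9e-05). Its paralog p38b fell by 0.16. The 2 genes that fell became 1 without replicate 2, 3 or 4 labelled ecd-RNAi or without control replicate 1, 2 or 3. In these fits Tak1 (adjusted p = 0.0466) was no longer called. Ask1 just missed the threshold (log2 fold change -0.08, adjusted p = 0.0502) and did so in 13 of 19 alternatives. It was called lower, making 3, with a pseudocount of 0.5, a filter at a mean of 50 or recentring on the median. After recentring on the median or rescaling to the same total without rRNA, 1 gene rose.

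Genes of the JNK cascade itself changed in both directions, where 30.8% of all genes tested were called higher and 31.7% lower. Of the 17 core genes of the cascade 7 rose, 4 fell and 6 did not pass, with a median of 0.00. The largest increases were in Traf4, an adaptor between receptor and kinases, at 1598 ± 55.1 normalized counts in libraries labelled ecd-RNAi and 400 ± 29.2 in control libraries (log2 fold change 2.00, adjusted p = 5.05e-09), and in egr, the Eiger ligand, at 421 ± 47.5 in libraries labelled ecd-RNAi and 155 ± 7.16 in control libraries (log2 fold change 1.43, adjusted p = 3.24e-07). The receptors of Eiger moved apart: grnd rose by 0.29 and wgn fell by 0.77 on the log2 scale. The JNK gene bsk fell by 0.20, and the kinase gene hep, which activates JNK, had a log2 fold change of -0.08 (adjusted p = 0.141). The phosphatase gene puc, an AP-1 target that shuts JNK off and is used as its standard readout, had 2919, 3046, 3361 and 2684 normalized counts in replicates 1 to 4 labelled ecd-RNAi, against 1612, 1767, 1426 and 1425 in control replicates 1 to 4 (log2 fold change 0.95, SE 0.08, adjusted p = 4.39e-06). Its groups did not overlap, and its fold change lay between those of Atf3 and cher. After recentring on the median or rescaling to the same total without rRNA, 8 core genes fell.

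Other known targets of JNK and wounding in the disc covered a wider range than the 7 genes. Of 16 such genes, with puc counted here as well as among the core genes, 12 rose, 1 fell and 3 did not pass. Their median log2 fold change was 1.91. The ETS factor gene Ets21C averaged 1643 ± 337 normalized counts in libraries labelled ecd-RNAi and 74.1 ± 60.3 in control libraries (log2 fold change 4.91, adjusted p = 3.44e-05), and was at 129 and 123 in control replicates 2 and 3 but at 22.1 and 21.7 in control replicates 1 and 4. Ilp8, a relaxin-like hormone by which damaged discs delay metamorphosis, averaged 6448 ± 1682 in libraries labelled ecd-RNAi and 35.8 ± 30.8 in control libraries (log2 fold change 7.88), and upd3, a cytokine of the JAK/STAT pathway, averaged 1192 ± 215 in libraries labelled ecd-RNAi and 27.8 ± 14.6 in control libraries (log2 fold change 5.50). The cell death gene hid fell by 0.37, whereas rpr, another cell death gene of the list, rose by 0.93 (adjusted p = 1.64e-05). The count that fell was 2 in 3 alternatives, with Jupiter added without replicate 2 labelled ecd-RNAi and after rescaling to the same total without rRNA, and Timp added with quantile normalization, genes named after their values were seen. This list was drawn up with results of these data known, so its direction is not independent evidence.

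**Figure D2:**
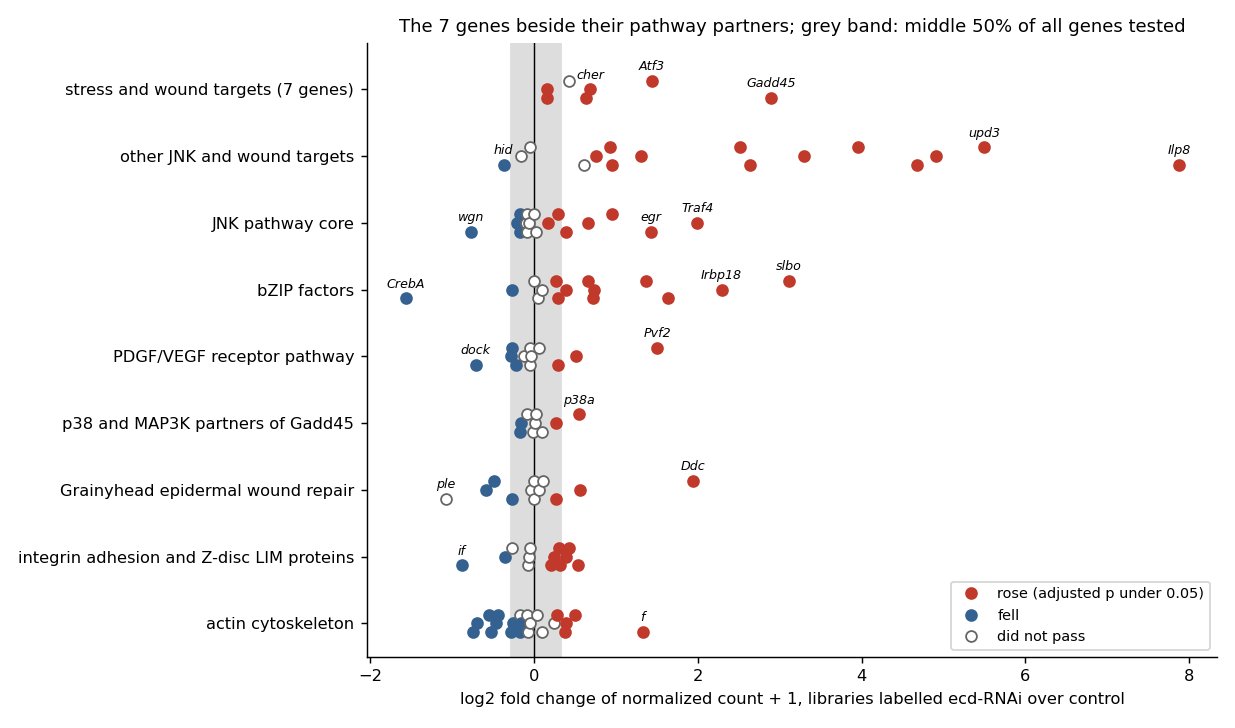
Log2 fold change (x axis) of each tested gene in the 7-gene set and in 8 lists of partners and related genes; filled red points rose, filled blue points fell, open points did not pass, and the grey band holds the middle 50% of all genes tested, from -0.29 to 0.33. Zasp52 and Cad96Ca lie inside the band, and the other JNK and wound targets reach further right than any of the 7 genes.

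Of the secreted members, scaf rose and Pvf1 did not pass. The gene scaf (scarface, FBgn0033033, chromosome 2R, 5676750 to 5691723, minus strand) encodes a secreted serine protease homologue that lacks catalytic activity and acts in dorsal closure of the embryo. It had 1641, 2199, 1533 and 1321 normalized counts in replicates 1 to 4 labelled ecd-RNAi, against 1100, 1145, 1031 and 968 in control replicates 1 to 4. The groups did not overlap, but replicate 2 labelled ecd-RNAi stood above the rest of its group. The coefficient of variation was 22.4% in libraries labelled ecd-RNAi and 7.33% in control libraries. The gene rose 1.58-fold (log2 fold change 0.63, SE 0.13, adjusted p = 0.00176), and 1.41-fold without replicate 2 labelled ecd-RNAi.

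Pvf1 (FBgn0030964, chromosome X, 18832682 to 18842901, plus strand) encodes a growth factor like vertebrate PDGF and VEGF, and is a ligand of the receptor tyrosine kinase Pvr. It had 151, 209, 160 and 94.0 normalized counts in replicates 1 to 4 labelled ecd-RNAi, against 113, 140, 95.2 and 97.0 in control replicates 1 to 4. Replicate 4 labelled ecd-RNAi was the lowest of all 8 libraries, while the other 3 of its group were above every control library. The means were 154 ± 47.1 in libraries labelled ecd-RNAi and 111 ± 21.0 in control libraries (SD, n = 4 each). Pvf1 did not pass the test (log2 fold change 0.42, SE 0.22, 95% interval -0.08 to 0.92, adjusted p = 0.127), and the interval allows both no change and a change almost as large as that of puc. Without replicate 4 labelled ecd-RNAi it passed (log2 fold change 0.64, adjusted p = 0.00899), and without replicate 2 labelled ecd-RNAi it was at 0.26. In the authors' deposited table it had a log2 fold change of 0.46 and an adjusted p of 0.123.

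The other ligands of Pvr passed where Pvf1 did not. Pvf2 had 2025, 2234, 2094 and 1852 normalized counts in replicates 1 to 4 labelled ecd-RNAi, against 702, 814, 723 and 650 in control replicates 1 to 4 (log2 fold change 1.51, SE 0.08, adjusted p = 9.01e-08). Its groups lay far apart. Pvf3 had 737, 764, 518 and 539 in replicates 1 to 4 labelled ecd-RNAi, against 404, 430, 499 and 442 in control replicates 1 to 4 (log2 fold change 0.51, SE 0.13, adjusted p = 0.00671), with the highest control library just below the lowest library labelled ecd-RNAi. The receptor gene Pvr averaged 2106 ± 234 in libraries labelled ecd-RNAi and 2024 ± 164 in control libraries (log2 fold change 0.05, 95% interval -0.13 to 0.24, adjusted p = 0.584). Of the 12 genes of the receptor pathway other than Pvf1, 3 rose, 4 fell and 5 did not pass. The adaptor gene dock fell by 0.71, and the small GTPase Rac1 and the adaptor Crk fell by 0.28 and 0.27 on the log2 scale. After recentring on the median or rescaling to the same total without rRNA, 7 fell. Per kilobase of exon, the normalized counts in libraries labelled ecd-RNAi averaged 976 ± 75.5 for Pvf2, 102 ± 20.7 for Pvf3 and 55.2 ± 16.9 for Pvf1, and those in control libraries averaged 344 ± 32.7, 71.2 ± 6.38 and 40.0 ± 7.53 for the same genes. Pvf1 was the lowest of the 3 ligands by mean in both groups.

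**Figure D3:**
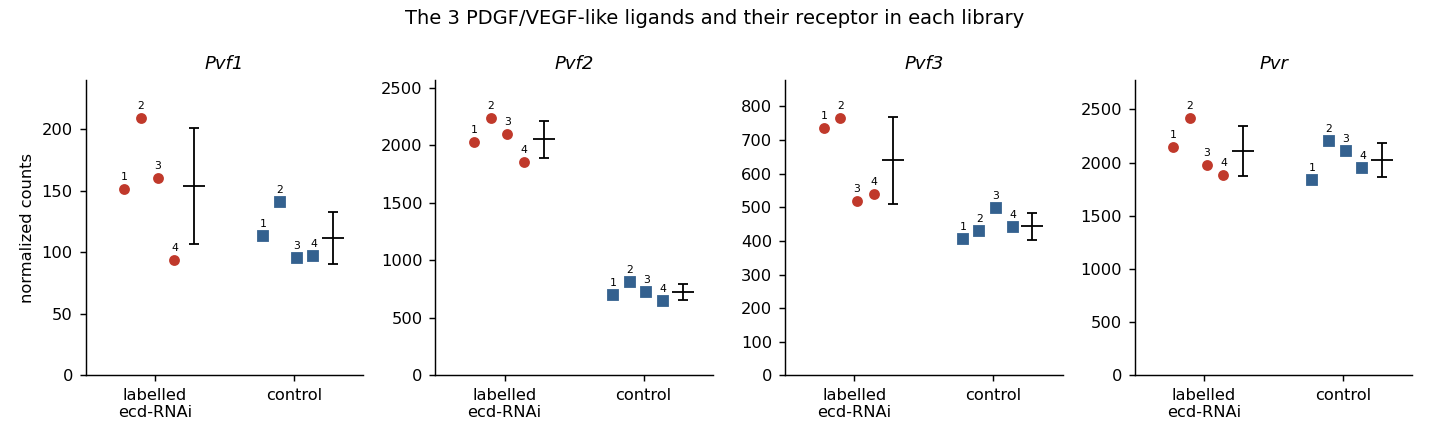
Normalized counts (y axis, each from 0) of the ligand genes Pvf1, Pvf2 and Pvf3 and of the receptor gene Pvr in the libraries labelled ecd-RNAi (red circles) and the control libraries (blue squares), numbered by replicate, with mean and SD in black. Pvf2 separates the groups widely, Pvf3 narrowly, and Pvf1 and Pvr do not.

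Cad96Ca (FBgn0022800, chromosome 3R, 25197571 to 25208283, minus strand) encodes a receptor tyrosine kinase with a cadherin repeat, a target of the epidermal transcription factor Grainyhead that is needed for wound repair in the embryo. It had 1299, 1360, 1286 and 1287 normalized counts in replicates 1 to 4 labelled ecd-RNAi, against 1136, 1095, 1221 and 1262 in control replicates 1 to 4. The groups did not overlap, but control replicate 4 was just below replicate 3 labelled ecd-RNAi. The fold was 1.11 (log2 fold change 0.15, SE 0.05, adjusted p = 0.0227). The call was lost after recentring on the median (0.061, adjusted p = 0.316), after rescaling to the same total without rRNA (0.076, adjusted p = 0.199) and without replicate 2 labelled ecd-RNAi, control replicate 1 or control replicate 2 (adjusted p = 0.0586, 0.0588 and 0.0605). The span of Cad96Ca overlaps that of CG13654 on the opposite strand, with no shared exon bases. CG13654 averaged 72.0 ± 8.56 normalized counts in libraries labelled ecd-RNAi and 41.1 ± 3.14 in control libraries.

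In the Grainyhead wound repair list 3 of 12 genes rose, 3 fell and 6 did not pass, with a median log2 fold change of 0.00. The factor gene grh itself fell to 8111 ± 326 normalized counts in libraries labelled ecd-RNAi, against 12182 ± 279 in control libraries (log2 fold change -0.59, adjusted p = 4.28e-07). Ddc, dopa decarboxylase, which makes dopamine for hardening the cuticle, rose to 117 ± 18.8 against 30.2 ± 6.97 in control libraries (log2 fold change 1.94, adjusted p = 1.69e-05). The gene ple, tyrosine hydroxylase, which acts one step before it, did not pass, at 19.6 ± 15.4 in libraries labelled ecd-RNAi and 40.7 ± 22.7 in control libraries. The collagen IV gene vkg rose by 0.56 and the chitin synthase gene kkv by 0.26, whereas Egfr fell by 0.49. With quantile normalization 6 genes of the list rose.

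Of the actin-binding members, cher rose clearly and Zasp52 barely. The gene cher (cheerio, FBgn0014141, chromosome 3R, 17091533 to 17125389, minus strand) encodes filamin, which crosslinks actin filaments and ties them to membrane proteins. It had 14064, 15239, 14646 and 13443 normalized counts in replicates 1 to 4 labelled ecd-RNAi, against 8463, 8321, 9644 and 9275 in control replicates 1 to 4. Every library labelled ecd-RNAi was well above every control library. The gene rose 1.61-fold (log2 fold change 0.69, SE 0.06, adjusted p = 2.93e-06). Its exons share 406 bases with cal1 on the opposite strand, a gene that averaged 1422 ± 76.6 normalized counts in libraries labelled ecd-RNAi and 1378 ± 48.9 in control libraries and did not pass (adjusted p = 0.435).

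Zasp52 (FBgn0265991, chromosome 2R, 15762565 to 15817004, minus strand) encodes a PDZ and LIM domain protein that binds alpha-actinin at muscle Z-discs and at integrin contacts. It has 22 annotated transcripts, the most of the 7 genes, and the values are per gene, so a shift between isoforms is not seen. It had 7462, 7219, 6562 and 6265 normalized counts in replicates 1 to 4 labelled ecd-RNAi, against 5723, 6506, 6198 and 6128 in control replicates 1 to 4. Control replicate 2 was above replicate 4 labelled ecd-RNAi, so the groups overlap. The fold was 1.12 (log2 fold change 0.16, SE 0.06, adjusted p = 0.0384). The call was lost after recentring on the median (0.070, adjusted p = 0.339), after rescaling to the same total without rRNA (0.086, adjusted p = 0.166) and in 5 of the 8 fits without 1 library, those without replicate 1 or 2 labelled ecd-RNAi or control replicate 1, 3 or 4. In the authors' deposited table Zasp52 and Cad96Ca had adjusted p-values of 0.0276 and 0.0306, and 6 of the 7 genes had a value under 0.05 there, against 47.5% of the gene rows with one.

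**Figure D4:**
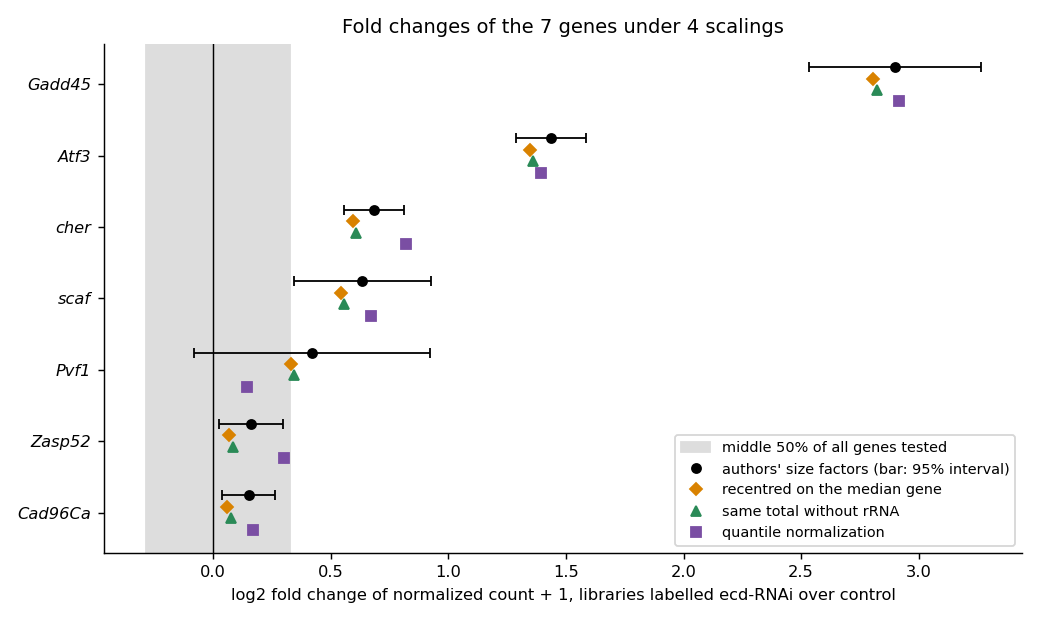
Log2 fold change (x axis) of the 7 genes with the authors' size factors (black, with 95% interval) and under 3 other scalings of the libraries; the grey band holds the middle 50% of all genes tested. Gadd45, Atf3, cher and scaf stay right of the band under each scaling shown, while Cad96Ca and Zasp52 stay inside it.

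Genes of the actin cytoskeleton changed in both directions. Of 22 of them tested 5 rose, 10 fell and 7 did not pass, with a median log2 fold change of -0.12, and with quantile normalization 7 rose and 7 fell. The actin gene Act5C fell to 59414 ± 5538 normalized counts in libraries labelled ecd-RNAi, against 86493 ± 1814 in control libraries (log2 fold change -0.55, adjusted p = 5.66e-05), the myosin VI gene jar fell by 0.75, and sn, the bundling protein fascin, fell by 0.69. The genes that rose included f (forked), a protein of bristle actin bundles, by 1.33, the small GTPase Rho1, by 0.50, and the myosin light chain sqh, by 0.39. Actn, the alpha-actinin that Zasp52 binds, averaged 3670 ± 175 in libraries labelled ecd-RNAi and 3874 ± 142 in control libraries and did not pass (log2 fold change -0.08, adjusted p = 0.133), but was called lower after recentring on the median, after rescaling to the same total without rRNA and without replicate 2 labelled ecd-RNAi.

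Of 13 genes of integrin adhesion and of the Z-disc LIM proteins tested, 7 rose, 2 fell and 4 did not pass, with a median log2 fold change of 0.20, where 30.8% of all genes tested were called higher. The talin gene rhea, which links integrins to actin, averaged 8509 ± 856 normalized counts in libraries labelled ecd-RNAi and 5853 ± 344 in control libraries (log2 fold change 0.54, adjusted p = 9.34e-05). Ilk and parvin, partners in the complex that holds integrins to actin, rose by 0.43 and 0.38. The integrin alpha genes if and mew fell by 0.88 and 0.36. Of the relatives of Zasp52, Zasp66 was low, at 55.2 ± 21.6 in libraries labelled ecd-RNAi and 63.7 ± 14.0 in control libraries, and Zasp67 was at 0 in all libraries labelled ecd-RNAi and on average 0.28 in control libraries.

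Since cher and Zasp52 are also made in muscle, and Pvf1 and scaf can be made by other cells of the disc, markers of other cells were set beside them. The 19 muscle precursor and muscle markers summed to 9767 to 11201 normalized counts in libraries labelled ecd-RNAi and 9729 to 10355 in control libraries. This sum holds opposite changes, with 3 of 17 tested higher and 5 lower. Those lower were zfh1 (by 1.70), htl (0.61), the precursor marker twi (0.56), stumps (0.45) and Mef2 (0.27). Those higher were Mlc2 (by 2.31), Mhc (0.96) and sls (0.44). The mean of sls was 4624 in libraries labelled ecd-RNAi and 3396 in control libraries. Of the higher calls, that of the muscle marker Mhc was kept in 7 of 19 alternatives. The 16 hemocyte markers summed to between 4623 and 7350, against 5644 to 6573 in control libraries, with 4 of 13 tested higher and 4 lower. The largest term of this sum by mean, ush, averaged 1442 ± 224 in libraries labelled ecd-RNAi and 2714 ± 124 in control libraries. Those higher were Hml (by 0.66, a call kept in 14 of 19 alternatives), NimC1 (0.71), Sr-CI (1.25) and ItgaPS4 (2.2). Those lower were ush (by 0.92), crq (0.20), PPO1 (1.88) and PPO2 (1.54). Those 4 lower calls became 1 without replicate 2 or 3 labelled ecd-RNAi or control replicate 2 or 3, and 2 without control replicate 1. The 12 tracheal markers summed to between 22357 and 25019, against 30739 to 32037 in control libraries, with 2 higher (1 after recentring on the median or rescaling to the same total without rRNA) and 7 lower. Fat body markers summed to between 1820 and 7063 in libraries labelled ecd-RNAi and to between 2659 and 10395 in control libraries, with replicate 4 labelled ecd-RNAi and control replicate 2 highest, and 0 of 9 tested rose and 2 fell (1 without replicate 2 or 3 labelled ecd-RNAi or control replicate 2, 3 or 4). Salivary gland markers summed to at most 11.3 in libraries labelled ecd-RNAi and to between 88.9 and 218 in control libraries, with all 3 tested lower. Of 7 tested neuronal markers 1 rose and 3 fell, and 0 rose without replicate 2 or 4 labelled ecd-RNAi or control replicate 2, 3 or 4. The marker that rose, Syt1, kept its call in 8 of 19 alternatives and lost it under each other scaling of the libraries. The neuronal markers summed to between 911 and 1053, against 1024 to 1243 in control libraries. Means over all libraries were under 3 for gcm and gcm2 (hemocytes), TpnC47D (muscle), Yp1 (fat body) and Sgs1 and Sgs4 (salivary gland). The part of other cells in the changes of the 7 genes was not tested.

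Ordered by log2 fold change, the 7 genes ran Gadd45, Atf3, cher, scaf, Pvf1, Zasp52 and Cad96Ca. The 6 pairs of neighbours in that order were compared within libraries by an exact two-sided permutation test over the 8 libraries, whose smallest possible p is 0.0286. The change of Gadd45 exceeded that of Atf3 by 1.46 (SE 0.20) and that of Atf3 exceeded that of cher by 0.75 (SE 0.09) on the log2 scale, each with an exact permutation p = 0.0286, the smallest the design allows. Adjusted over the 6 pairs both became 0.0857. With 4 libraries a group and no other pair at the smallest p, neither could pass after adjustment, whatever the size of its difference. The pairs also follow an order taken from the same fold changes. The other neighbours differed by less, cher and scaf by 0.05 (SE 0.16, p = 0.8), scaf and Pvf1 by 0.21 (SE 0.14, p = 0.257), Pvf1 and Zasp52 by 0.26 (SE 0.23, p = 0.314) and Zasp52 and Cad96Ca by 0.01 (SE 0.08, p = 0.83), in the same exact permutation test.

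Some libraries recurred at the ends of their group. Replicate 4 labelled ecd-RNAi held the lowest value of its group for 5 of the 7 genes (Gadd45, scaf, Pvf1, cher and Zasp52) and the highest for Atf3. Replicate 2 labelled ecd-RNAi held the highest for 4 (scaf, Pvf1, Cad96Ca and cher) and the lowest for Atf3. Among control libraries, replicate 2 was highest for Gadd45, scaf, Pvf1 and Zasp52. Without replicates 2 and 4 labelled ecd-RNAi together, Pvf1 was called (log2 fold change 0.50, adjusted p = 0.0430) and Cad96Ca was not (0.14, adjusted p = 0.113). That fit was chosen after these values were seen, so its calls are not independent evidence. It leaves out the highest and the lowest library of Pvf1 in that group.

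Levels of different genes can be set side by side only per length. Per kilobase of exon, with exons of all annotated transcripts merged, the order of means in libraries labelled ecd-RNAi was Gadd45 at 2116 ± 96.0 normalized counts, cher at 1522 ± 81.8, Zasp52 at 630 ± 51.1, scaf at 483 ± 108, Cad96Ca at 445 ± 11.9, Atf3 at 166 ± 12 and Pvf1 at 55.2 ± 16.9 (SD, n = 4). There the range of scaf overlapped those of both Zasp52 and Cad96Ca. In control libraries cher came first with 947 ± 67.6, before Zasp52 with 562 ± 29.5, Cad96Ca with 401 ± 26.0, scaf with 307 ± 22.5, Gadd45 with 292 ± 88.6, Atf3 with 61.1 ± 3.84 and Pvf1 with 40.0 ± 7.53. There the range of Gadd45 took in that of scaf and part of that of Cad96Ca, and the other neighbours did not overlap. Merging the exons gives a lower level per kilobase to genes with many transcripts, such as Zasp52 and cher. By this measure the level of Gadd45 was at percentile 94.2 of all genes tested in libraries labelled ecd-RNAi and at percentile 53.4 in control libraries. Atf3 was at percentile 34.5 in libraries labelled ecd-RNAi and at percentile 22.4 in control libraries.

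**Figure D5:**
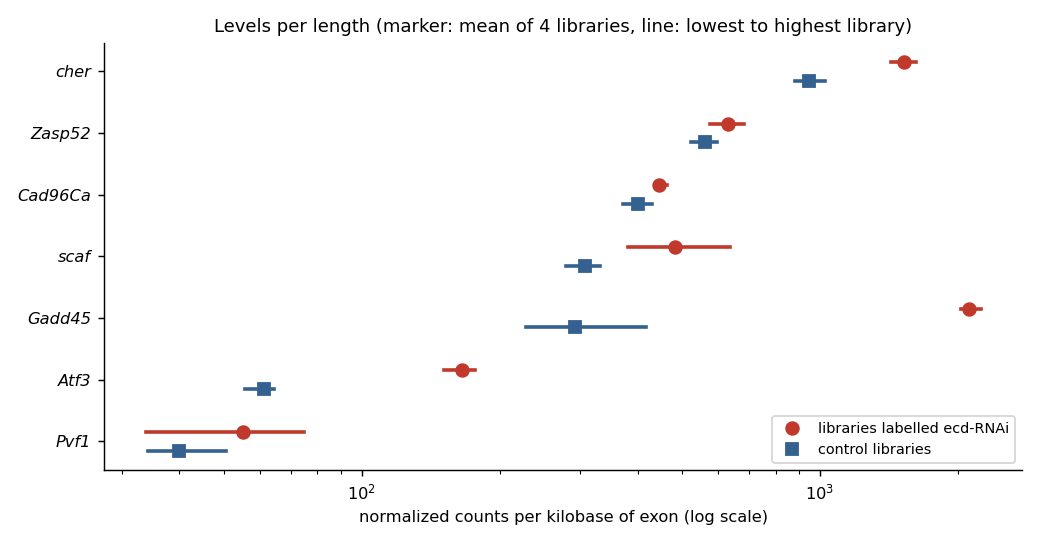
Normalized counts per kilobase of exon (x axis, log scale) of the 7 genes, as the mean (marker) and the range (line) over the 4 libraries labelled ecd-RNAi (red circles) and the 4 control libraries (blue squares). Gadd45 lies above all others in libraries labelled ecd-RNAi and near the middle of the 7 in control libraries.

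For each of the 7 genes, the genes of most similar pattern were those with the smallest root-mean-square difference in log2(normalized count + 1), each gene taken relative to its control mean, over the 8 libraries. Atf3 was closest to Non1 (0.04) and REPTOR (0.07), scaf to wg (0.11) and PCNA2 (0.12), and Gadd45 to CG12868 (0.11) and Mocs1 (0.16). For cher, 271 genes lay within 0.15, among them dl (0.05). Pvf1 had no gene within 0.15, its nearest being stv (0.16) and mspo (0.17). Cad96Ca and Zasp52, whose changes were small, had 1859 and 1449 genes within 0.15, with CtsK1 (0.03) and verm (0.05) nearest. These values describe likeness in 8 libraries that fall into a pair of groups, and carry no test.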

How the data were processed

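The authors deposited normalized counts, a signal per gene with decimals, for each of 8 libraries. Per the submitters' processing notes, FastQC, cutadapt 3.5, kallisto 0.46.1 and DESeq2 1.34.0 were used on BDGP6. Settings and strand use were not given in the sources used here. A second table the authors deposited, with their comparison of the groups, holds log2 fold changes, a Wald score and p-values, per the file headers. Whole reads could not be recovered: in each library 74.3% to 84.6% of values up to 20 reads lay within 0.1 of a whole number, so no count model was run.

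The test was limma 3.58.1 in R 4.3.3, two-sided, with eBayes variances following the mean, on log2(value + 1) of genes averaging 10 or more, over all 8 libraries with no covariate, and fold changes are on that scale unless given as N-fold, a ratio of group means. The script was tested on simulated data. P-values were adjusted by Benjamini-Hochberg over all 9380 rows and called under 0.05. SDs are over 4 libraries, which the labels call biological replicates. Permutation tests used scipy 1.17.1 and were chosen after fold changes were seen. Coordinates and exons came from Ensembl's BDGP6 annotation, 1-based. Members and the 16 comparison lists were chosen with earlier results of these data known, and named genes are the members, their partners and up to 3 per list and direction with the largest change. A list entry without a row was not analysed here. Alternatives were other pseudocounts, filters, scalings, weights and fits without 1 library.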

Additional observations from a re-analysis of the deposited data

Results flagged for a closer look

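In the 4 libraries labelled ecd-RNAi, the highest value of Cad96Ca, in replicate 2, stood apart from the others. Its gap to the next library was 0.83 of the range of the group, just above Dixon's 95% critical value for 4 samples. The values were 1360 in replicate 2 and 1286 to 1299 in the other 3 libraries, and without replicate 2 the adjusted p of Cad96Ca was 0.0586. In all, 14 groups of 4 values were examined in this way, and chance passes about 5% of groups.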

How the results depend on the processing

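Gadd45, Atf3, cher and scaf kept their direction and their call in all 19 alternatives, with log2 fold changes of 2.80 to 3.08, 1.35 to 1.48, 0.59 to 0.82 and 0.49 to 0.74. The number of the 7 genes called higher was between 4 and 7, and 0 were called lower in any. Recentring on the median moved the share of calls that were higher over all genes to 38.2%, against 49.3% with the authors' size factors, and it was 40.1% after rescaling to the same total without rRNA. Under these scalings Cad96Ca was at 0.061 and 0.076 and Zasp52 at 0.070 and 0.086, none past the threshold. Zasp52 also missed it without a mean trend (0.16, adjusted p = 0.0755). Over all 19 alternatives Zasp52 was between 0.070 and 0.30 (adjusted p from 0.000348 to 0.339) and kept its call in 11. Cad96Ca was between 0.061 and 0.19 (adjusted p from 0.00927 to 0.316) and kept its call in 13. In fits without 1 library, Cad96Ca was between 0.12 and 0.19, Zasp52 between 0.12 and 0.21 and Pvf1 between 0.26 and 0.64, with adjusted p up to 0.0605, 0.103 and 0.322. Without replicates 2 and 4 labelled ecd-RNAi together, Pvf1 was at 0.50 and Cad96Ca at 0.14. Replicate numbers did not pair the libraries (correlations of deviations between -0.05 and 0.05, and 2 of 8 libraries correlated best with their own number). With the replicate block, Pvf1 kept its log2 fold change of 0.42 and passed (adjusted p = 0.0398), 2796 genes over all were called higher against 2889 without the block, and 7 of the 7 genes were called. The cause of these differences was not tested, and 4 libraries per group limit what can be said of small changes.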

Other observations

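Proteases that, like scaf, belong to the clip-domain family or act in its cascades also changed, in both directions: 5 of 9 tested rose, 3 fell and 1 did not pass, with a median log2 fold change of 0.40. The Toll pathway protease gene psh (persephone) averaged 185 ± 49.2 normalized counts in libraries labelled ecd-RNAi and 3.88 ± 2.71 in control libraries. The gene ea (easter), a protease of dorsoventral patterning, averaged 484 ± 11.2 in libraries labelled ecd-RNAi and 204 ± 10.1 in control libraries (log2 fold change 1.24, limma with Benjamini-Hochberg adjusted p = 7.22e-08). MP1, a protease of the melanization cascade, fell by 1.09 to 590 ± 37.3, against 1258 ± 43.3 in control libraries. With a mean of at least 50 as the filter, 1 gene of this list fell.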
